A study of Mus musculus with 96 samples.

Results

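Annexin A2 (Anxa2), its light chain S100A10 (S100a10) and 8 related genes were followed through single neurons of the mouse lateral superior olive (LSO), an auditory brainstem nucleus. The 10 members are 7 annexins (Anxa1 to Anxa7), the S100 proteins S100a10 and S100a11, and Ahnak, and all 10 were found among the 38887 genes of the expression table by their Ensembl identifier. The set was selected on the measured expression of these same cells, the difference between neuron classes included, so the levels are described here and no test was run on them. The cytoplasm of each neuron was drawn into the patch pipette after recording, and each neuron gave 1 sequencing library. C57BL/6 J mice of both sexes were used around hearing onset, in the second postnatal week, and no group carried a transgene or a treatment.

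Groups follow the firing pattern given for each cell. Principal LSO neurons (pLSOs), which send the ascending output of the nucleus, are labelled as pLSO_Onset where they fired at the start of a current step and as pLSO_Sustained where they fired throughout. Lateral olivocochlear neurons (LOCs), which project back to the cochlea, are labelled as LOC_Delayed. Negative controls hold the contents of a pipette whose tip only touched the slice. Of 86 labelled neurons and 10 controls, 41 Onset neurons, 11 Sustained neurons (together 52 pLSOs), 28 LOCs and 8 controls were compared. Another 8 libraries were left out by the rule that defined the set. That choice rests in part on expression. The shares of Anxa2 and Anxa5 and the differences of Anxa7 are given both ways. No label names an animal, so each group counts as 1 sample, and every error below is counting error or the spread over cells.

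Annexins are built from repeats of a calcium-binding domain that docks on acidic lipids, and several are known from vesicle traffic and from sealing of the wounded plasma membrane. Annexin A2 forms a heterotetramer with a dimer of S100A10 (p11), a member of the S100 family that no longer needs calcium to bind. This complex links membranes to the cortical cytoskeleton, also through the giant scaffold protein AHNAK, and S100A10 escorts several ion channels and receptors to the cell surface. Annexin A5 is best known as a probe for phosphatidylserine, and annexin A6 differs from the others in its doubled core.

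The libraries of the compared neurons held 1175 to 6276 genes at 1 TPM (transcripts per 1000000) or more, with a median of 2394 in LOCs and 2561 in pLSOs. Controls held 285 to 1271 such genes. Defining markers were checked against the labels, after the 8 libraries had been left out, among them 1 labelled as Sustained that held Calca at 1887 TPM. Spp1 (osteopontin) was found in 50 of 52 pLSOs, 1 of 28 LOCs and 4 of 8 controls. Ucn (urocortin) and Isl1 (a LIM homeodomain factor) were found in 0 of 52 pLSOs and in 23 and 22 of 28 LOCs. Of the 8 controls, 2 held Ucn and 0 held Isl1. Others overlapped. Calca, a peptide gene of LOCs, was found in 26 of 28 LOCs, 15 of 52 pLSOs and 5 of 8 controls, where it reached 315 TPM. The pLSO markers Lpgat1, Maf and Slc17a6 were found in 13, 8 and 7 of 28 LOCs. Chat, the enzyme that makes acetylcholine, was found in only 5 of 28 LOCs. The deposited TPM are whole numbers whose scale does not follow the length of each gene, since the value of a single read falls along the table: an estimated read was worth 3.64 TPM at Anxa6, 0.305 TPM at Anxa5, 0.148 TPM at Anxa2, 0.0767 TPM at S100a10 and 0.0288 TPM at Ahnak in the median neuron. These worths are inferred, not measured, for all 10 members. Levels of different genes are compared only on values corrected for annotated gene length. The scale also varies between libraries: Anxa2 at 64 TPM in cell_59 and 63 TPM in cell_73, both LOCs, stood at 301 and 580 after this correction. Values of a single gene are thus compared between groups only roughly.

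Of the 10 members, 1 was never seen, 9 were found in at least 1 of the 80 neurons at 1 TPM or more, and 7 passed the filter of 5% of neurons. Anxa2 was found almost only in LOCs and Anxa5 mostly in pLSOs. Anxa6 was found in both classes, S100a10 in a minority of both, and the other members in few cells. The upstream sequences of Anxa2 and Anxa5, the members that differed most between the classes, are shown first. Matches to 4 motifs on either strand are in capitals. The motifs are the TATA box (TATAAA), the CAAT box (CCAAT), the GC box (GGGCGG) and the homeodomain core (TAATTA). The sequences hold 300 bases each, 250 before and 50 after the start site in RefSeq (GRCm38.p6), which listed 7 of the 10 members. For both genes this site differs from the start of the gene span given below.
Anxa2, chr9:69453433-69453732, plus strand: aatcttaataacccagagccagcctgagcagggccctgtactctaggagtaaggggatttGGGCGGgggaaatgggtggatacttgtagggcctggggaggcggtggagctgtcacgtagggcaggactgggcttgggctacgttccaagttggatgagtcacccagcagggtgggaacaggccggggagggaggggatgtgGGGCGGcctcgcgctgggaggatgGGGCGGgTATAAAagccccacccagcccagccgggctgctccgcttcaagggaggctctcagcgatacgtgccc
Anxa5, chr3:36475838-36476137, minus strand: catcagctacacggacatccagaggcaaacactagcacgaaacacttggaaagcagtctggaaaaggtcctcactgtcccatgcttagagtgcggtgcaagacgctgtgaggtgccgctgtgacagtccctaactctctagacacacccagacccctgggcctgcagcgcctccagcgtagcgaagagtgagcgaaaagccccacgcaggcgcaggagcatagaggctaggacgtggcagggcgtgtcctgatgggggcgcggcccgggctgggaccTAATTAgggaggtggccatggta
The Anxa2 window held 1 TATA box, beginning at base 234, and 3 GC boxes, beginning at bases 61, 203 and 227, with bases counted from 1 at the left end. The TATA box and the GC boxes at bases 203 and 227 lie within the Anxa2 gene span given below. The Anxa5 window held no TATA box, no GC box and no CAAT box, but 1 homeodomain core at base 278, a palindrome that reads alike on both strands. Over all 32851 such windows, 13.6% held the TATA box, 37.4% the CAAT box, 35.7% the GC box and 5.29% the homeodomain core. The windows had a GC content of 63.7% (Anxa2) and 60.3% (Anxa5), against a median of 52.7% over all windows. The motifs were picked after both sequences had been read, and the matches describe letters only.

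Anxa2, the heavy chain of the annexin A2 complex, lies at chr9:69453620-69491795 on the plus strand (GRCm38). In the 28 LOCs its level ranged from 0 to 587 TPM with a median of 120 TPM, and 22 LOCs (78.6%, exact 95% interval 59.0% to 91.7%) held it. The lowest detected value was 10 TPM, and 16 of 28 LOCs reached 100 TPM or more, so that LOCs either had clear values or were listed at 0. Among the 41 Onset neurons, 2 held Anxa2 (4.88%, interval 0.596% to 16.5%), at 53 and 30 TPM, and the other Onset neurons were at 0. None of the 11 Sustained neurons held it, which allows a share of up to 27.3%. The highest of the 8 controls had 1 TPM, about 1 estimated read. The means were 146 TPM in LOCs (SD 142, n = 28) and 1.60 TPM in pLSOs (SD 8.37, n = 52), the latter carried by 2 cells. The difference of mean log2(TPM + 1) was 5.40, LOC minus pLSO.

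The classes overlapped at both ends, since 6 LOCs were listed at 0 and 20 of 28 LOCs exceeded the highest pLSO. Both Anxa2-positive Onset neurons carried the pLSO marker Spp1 at 162 and 150 TPM and no Ucn or Isl1, with Calca (calcitonin gene-related peptide, abundant in LOCs) at 1 TPM in each. With every labelled library included, 24 of 30 LOCs (80.0%) and 3 of 56 pLSOs (5.36%) held Anxa2. The pLSO added there is labelled as Sustained and had 32 TPM, beside 1887 TPM of Calca and 28 TPM of Ucn. The annotated gene overlaps Gm16144 on the opposite strand and Mir3109 on its own, and the libraries were not stranded, so reads of Gm16144 and Anxa2 cannot be told apart where they overlap.

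**Figure D1:**
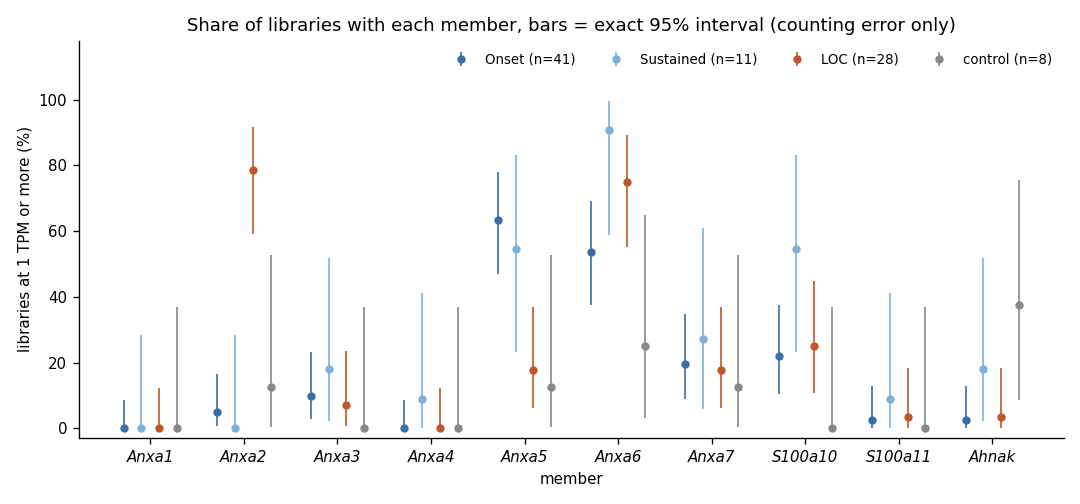
Share of libraries (%, vertical axis) at 1 TPM or more for each of the 10 members (horizontal axis) in 41 Onset neurons, 11 Sustained neurons, 28 LOCs and 8 negative controls; points are shares and vertical lines exact 95% intervals, which cover counting error only. Anxa2 stood at 78.6% in LOCs and 4.88% in Onset neurons, Anxa5 at 17.9% in LOCs and 63.4% in Onset neurons.

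Anxa5, the phosphatidylserine-binding annexin, lies at chr3:36448923-36475894 on the minus strand and went the other way. Onset neurons ranged from 0 to 262 TPM with a median of 53 TPM, and 26 of 41 held it (63.4%, interval 46.9% to 77.9%). Sustained neurons ranged from 0 to 89 TPM with a median of 3 TPM, and 6 of 11 held it (54.5%, interval 23.4% to 83.3%). In both firing types the cells with Anxa5 mostly stood well above 0, with medians among them of 78.5 and 48 TPM, and the rest were at 0. Of the 28 LOCs, 5 held Anxa5 (17.9%, interval 6.06% to 36.9%), at 3, 3, 18, 23 and 148 TPM, and the median was 0. These 5 LOCs all carried Calca, at 593 to 2766 TPM, and Isl1, and 1 of them had Spp1, at 1 TPM. The mean was 53.8 TPM in pLSOs (SD 65.5, n = 52) and 6.96 TPM in LOCs (SD 28.2, n = 28), or 1.74 TPM in LOCs without the highest cell. The difference of mean log2(TPM + 1) was -2.95, LOC minus pLSO. Among the 8 controls, 7 were at 0 and 1 had 436 TPM of Anxa5, about 190 estimated reads. In deposited TPM that control lay above every neuron. On length-corrected values it stood at 2034, below the 2299 of cell_10, an Onset neuron. The part of RNA from outside the patched cell in the Anxa5 values of pLSOs was not tested. With every labelled library included, 33 of 56 pLSOs (58.9%) and 5 of 30 LOCs (16.7%) held it. Within pLSOs the Anxa5 level went with the number of genes detected (Spearman's rho = 0.38 over 52 cells) and with the estimated reads (0.35). Within LOCs the coefficients of Anxa2 were 0.03 with the number of genes and -0.33 with the estimated reads, over 28 cells.

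**Figure D2:**
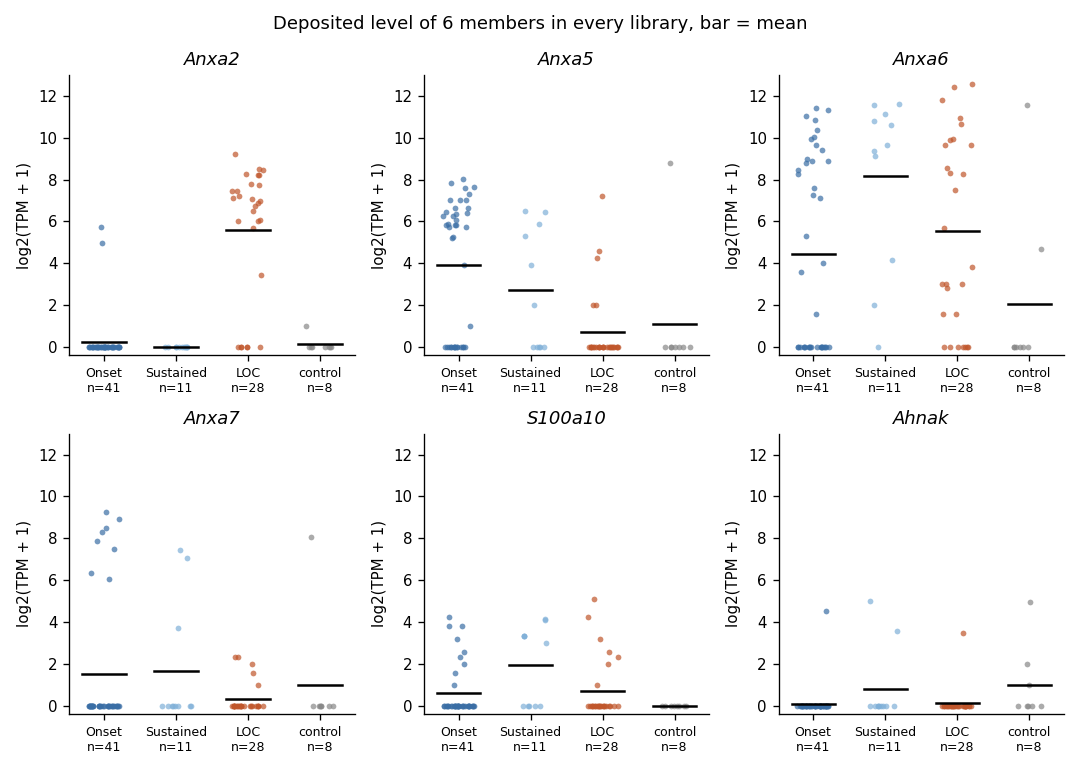
Level of Anxa2, Anxa5, Anxa6, Anxa7, S100a10 and Ahnak, as log2(TPM + 1) on the vertical axis, in each library of the 4 groups on the horizontal axis; each point is a library, spread sideways for visibility, and the black bar is the group mean. LOCs with Anxa2 lay between 10 and 587 TPM, while 2 of 41 Onset neurons and 0 of 11 Sustained neurons held it.

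Set against all genes, a call by size was used in place of a test, namely a difference of at least 1 in mean log2(TPM + 1) among the 10319 genes found in at least 5% of neurons. Anxa2 alone of the members passed it towards LOCs, where 4.68% of all genes did, and Anxa5 and Anxa7 passed it towards pLSOs, where 6.99% of all genes did. The set was picked for these values, so nothing is read from the counts. By the share of cells, at 25 percentage points or more, Anxa2 was higher in LOCs (74.7 points, LOC minus pLSO; 1.8% of all genes passed) and Anxa5 higher in pLSOs (-43.7 points; 3.06% passed). A difference of 1 weighs genes unequally, since a read is worth a different TPM at each gene. On length-corrected values the differences of Anxa2 and Anxa5 were 7.39 and -4.26. The 7 members that passed the filter had a median difference of -0.15, beside -0.07 over all 10319 genes.

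**Figure D3:**
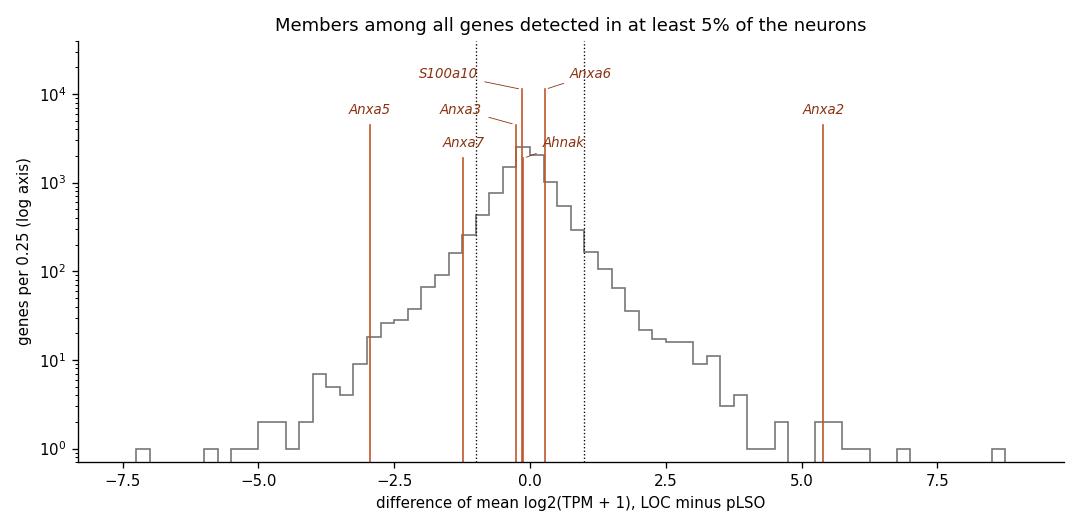
Number of genes (log axis) per 0.25 of the difference in mean log2(TPM + 1), LOC minus pLSO (horizontal axis), for the 10319 genes found in at least 5% of neurons, with the 7 members that passed this filter as vertical lines of arbitrary height; dotted lines mark differences of 1 in either direction. Anxa2 lay at 5.40 and Anxa5 at -2.95, Anxa7 at -1.23, and the other 4 members lay within the dotted lines.

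Anxa7 (chr14:20455260-20480133, minus strand), a calcium-dependent membrane-fusing annexin once called synexin, was found in similar shares of the classes but at unlike levels. In Onset neurons 8 of 41 held it, at 66 to 607 TPM, and in Sustained neurons 3 of 11, at 12, 132 and 173 TPM. In LOCs 5 of 28 held it, at 1 to 4 TPM, and 1 estimated read at this gene was worth 1.82 TPM in the median neuron. All 11 pLSOs with Anxa7 lay above every LOC, yet the medians of both classes were 0. The difference of mean log2(TPM + 1) was -1.23, LOC minus pLSO, and -1.42 with every labelled library included. Onset minus Sustained, it was -0.12, and -0.61 with every labelled library. Left-out libraries labelled as Onset (cell_39) and Sustained (cell_54) held 155 and 311 TPM of Anxa7. No LOC reached 3 estimated reads of Anxa7. A control with 262 TPM held about 1 estimated read of this gene, in a library of few reads.

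Anxa6, the annexin with a doubled core, was the member found in the largest number of neurons, 53 of 80 (chr11:54979108-55033445, minus strand). Onset neurons ranged from 0 to 2760 TPM with a median of 11 TPM, and 22 of 41 held it (53.7%, interval 37.4% to 69.3%). Sustained neurons ranged from 0 to 3101 TPM with a median of 814 TPM, and 10 of 11 held it (90.9%, interval 58.7% to 99.8%). LOCs ranged from 0 to 5974 TPM with a median of 32 TPM, and 21 of 28 held it (75.0%, interval 55.1% to 89.3%). All 3 groups ran from 0 to 2760 TPM or more and so overlapped. Of the LOCs with Anxa6, 15 had 10 TPM or more and the other 6 had 2 to 7 TPM, against 3.64 TPM for 1 estimated read. The difference between the classes was 0.28, LOC minus pLSO, and it was -1.44 when medians over neurons took the place of means. Of the 8 controls, 2 held Anxa6, at 25 and 3062 TPM, the higher one in the same library as the 436 TPM of Anxa5; that library also held 594 TPM of the neuronal gene Snap25 and no Spp1.

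S100a10, the light chain that binds annexin A2, lies at chr3:93555080-93564643 on the plus strand and had small deposited TPM in every group, at a row where a single read adds little. Onset neurons ranged from 0 to 18 TPM and 9 of 41 held it (21.95%, interval 10.6% to 37.6%), with a median of 0. Sustained neurons ranged from 0 to 17 TPM with a median of 7 TPM, and 6 of 11 held it (54.5%, interval 23.4% to 83.3%). LOCs ranged from 0 to 33 TPM with a median of 0, and 7 of 28 held it (25.0%, interval 10.7% to 44.9%). The ranges of the 3 groups overlapped, and the difference between the classes was -0.15, LOC minus pLSO. The 8 controls were at 0, which allows a share of up to 37.5%. In the median neuron about 6.52 estimated reads were needed before S100a10 could be rounded up to 1 TPM, so a listed 0 does not mean that no read was counted.

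The heavy and the light chain were seen together in few cells. Of the 22 LOCs with Anxa2, 6 also held S100a10 and 16 did not, and 1 LOC had S100a10 alone. In pLSOs, 14 cells held S100a10 alone, 1 held both and 1 held Anxa2 alone. Within the 28 LOCs, Pearson's r of log2(TPM + 1) between the chains was 0.16, and Spearman's rho was 0.11. Over all 80 neurons r was 0.03. The cells differ in depth, and S100a10 was at 0 in most of them, so these coefficients are given as a description. With Ahnak, the scaffold partner, the overlap was 1 LOC. All 22 LOCs with Anxa2 held Calca, and 21 of them held Ucn and 19 Isl1. Of all 28 LOCs, 26 held Calca, 23 Ucn and 22 Isl1, but only 7 held S100a10. Among LOCs without Anxa2, 4 held Calca and 2 did not, and 2 held Ucn and 4 did not. Of the same LOCs, 3 held Isl1 and 3 did not. These cells are few, and the link between the genes was not tested.

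**Figure D4:**
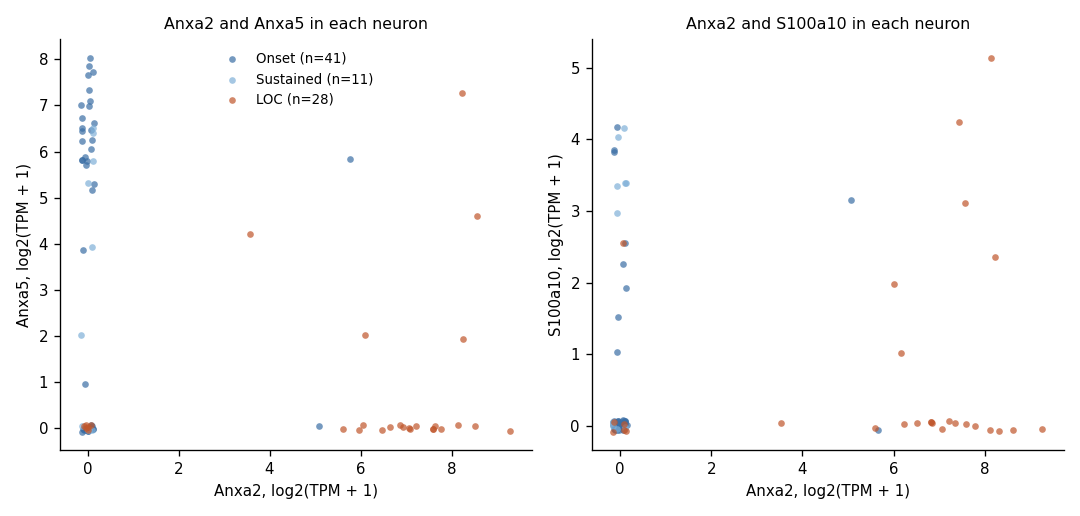
Anxa2 (horizontal axis) against Anxa5 (left) and S100a10 (right), both axes in log2(TPM + 1), in each of 41 Onset neurons, 11 Sustained neurons and 28 LOCs; points are cells, shifted slightly so that those at 0 can be seen. Most pLSOs lie along the left edge and most LOCs along the lower edge; 6 cells held Anxa2 with Anxa5, 5 of them LOCs, and 7 held Anxa2 with S100a10, 6 of them LOCs.

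The joint counts of Anxa2 and Anxa5 go largely with their shares in each class, on which the set was selected. In pLSOs 31 of 52 cells held Anxa5 without Anxa2, 1 held both, 1 held Anxa2 alone and 19 held neither. In LOCs 17 of 28 held Anxa2 without Anxa5, 5 held both, 6 held neither and none held Anxa5 alone. Anxa6 joined Anxa2 in 18 of the 22 LOCs with Anxa2, and it joined Anxa5 in 20 of the 32 pLSOs with Anxa5. Each class median was 2 members per neuron, and 9 of 80 neurons held no member.

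Ahnak, the giant scaffold at chr19:8989284-9076914 on the plus strand, was found in 1 of 41 Onset neurons (22 TPM), 2 of 11 Sustained neurons (11 and 31 TPM) and 1 of 28 LOCs (10 TPM). Controls held it in 3 of 8 libraries, at 1, 3 and 30 TPM. The highest neuron (31 TPM) and the highest control (30 TPM) were nearly equal, but that control was a library of few reads. In the median neuron about 17.3 estimated reads were needed for a value of 1 TPM. S100a11 (chr3:93520488-93526287, plus strand), a light chain that binds annexin A1, was found in 1 Onset neuron (24 TPM), 1 Sustained neuron (1 TPM) and 1 LOC (3 TPM). Anxa1 (chr19:20373428-20390944, minus strand), the glucocorticoid-induced annexin, was listed at 0 in all 96 libraries, which allows a share of up to 3.75% of the 80 neurons. Anxa3 (chr5:96793339-96845966, plus strand), an annexin known from phagocytes and microglia, was found in 4 Onset neurons (8 to 49 TPM), 2 Sustained neurons (19 and 34 TPM), 2 LOCs (4 and 24 TPM) and none of the controls. Anxa4 (chr6:86736840-86793584, minus strand), known mainly from epithelia, was found in 1 Sustained neuron at 2 TPM.

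On the length-corrected scale, on which members can be set side by side, the order of the means differed by class. The quantity here is an estimated TPM, a level and not a difference, and for all 10 members it rests on the inferred worth of a read. In LOCs Anxa2 was first with a mean of 942, followed by Anxa6 (272), S100a10 (94.98) and Anxa5 (46.5). In Onset neurons Anxa5 was first with 487, followed by Anxa6 (172) and S100a10 (64.9), and in Sustained neurons Anxa6 was first with 520, followed by S100a10 (236.01) and Anxa5 (224). The spread over cells was wide enough that neighbours in these orders overlapped in range, and S100a10 with Anxa5 in Sustained neurons was the closest pair. In deposited TPM the mean of S100a10 in Sustained neurons was 6.09 and that of Anxa5 26.3, a comparison that the scale of the table does not allow.

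**Figure D5:**
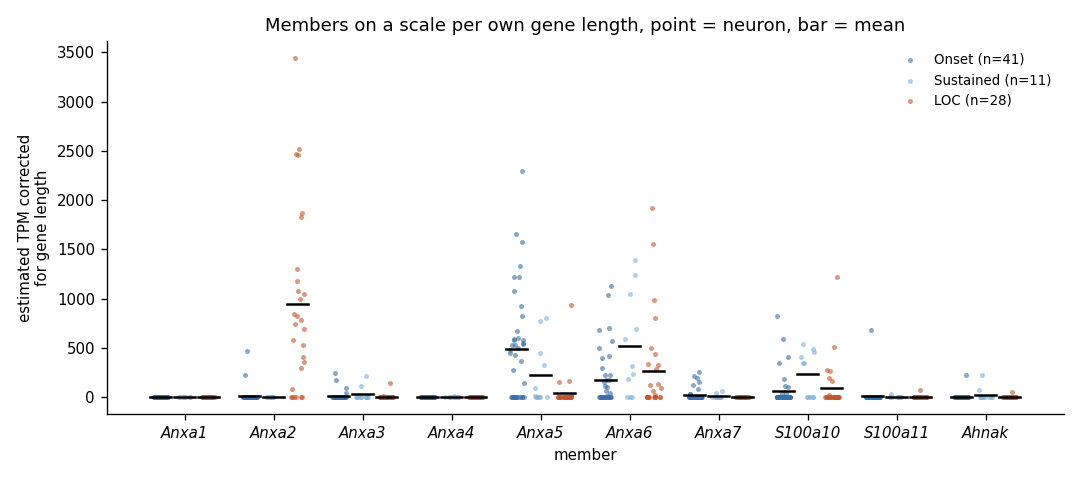
Level of each of the 10 members (horizontal axis) as estimated TPM corrected for annotated length (vertical axis, linear), in 41 Onset neurons, 11 Sustained neurons and 28 LOCs; points are neurons and black bars means. The mean of Anxa2 in LOCs was 942 and that of Anxa5 in Onset neurons 487, and the mean of Anxa6 was above 100 in all 3 groups.

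Between the firing types of pLSOs, Anxa5 was higher in Onset neurons by 1.19 in mean log2(TPM + 1), past the size of 1 that 4.78% of all genes passed in this direction. Anxa6 and S100a10 were higher in Sustained neurons, with Onset minus Sustained differences of -3.72 and -1.33, where 10.3% of all genes passed. By shares, 90.9% of Sustained and 53.7% of Onset neurons held Anxa6, and 54.5% and 21.95% held S100a10, and 6.43% of all genes differed by 25 points or more in this direction. Towards Onset neurons 0 members did so, where 1.57% of all genes did. With 11 Sustained neurons the intervals of these shares overlap for both genes. With a pseudocount of 10 the differences of S100a10 and Anxa5 fell below 1 in size, to -0.42 and 0.78. Marker lists differed between the firing types as well. All 8 of 8 microglia markers were found in each type, and none was at 0 throughout. Their summed rescaled level had a median of 1384 (range 0 to 19552) in Sustained neurons and 2.73 (range 0 to 11763) in Onset neurons. Median sums of astrocyte markers were 310 in Sustained and 48.4 in Onset neurons, and those of oligodendrocyte markers 644 and 637. Neuron markers had median sums of 1742 and 2913, and principal LSO neuron markers 1668 and 4977. The part of these lists in the S100a10 difference was not tested.

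Markers of other cell types were also summed in LOCs, the class with Anxa2, and the lists differed. The part of RNA from other cells in the Anxa2 values was not tested. In LOCs, 6 of 7 endothelial markers were at 0 (all but Pecam1), with a summed level of 0 to 165, and 4 of 7 fibroblast and mural markers were at 0, with a summed level of 0 to 2.10. The astrocyte list was found with 5 of 7 markers in LOCs, summed at 0 to 2574 with a median of 73.5, and Aldh1l1 and Gja1 were at 0. For microglia 7 of 8 markers were found in LOCs, all but Tmem119, summed at 0 to 15168 with a median of 150. The oligodendrocyte list was found with 6 of 6 markers in every group, with a median summed level of 1069 in LOCs and 9454 in controls. Its highest sum in a LOC was 33251. Within LOCs, Spearman's rho of Anxa2 with these sums was between -0.44 (astrocytes) and -0.02 (oligodendrocytes and microglia), over 28 cells.

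The genes most like Anxa2 over the 80 neurons, by Pearson's r of log2(TPM + 1) among 4800 genes found in at least 20% of them, were Ucn (0.83), Calca (0.82), Col4a4 (0.76), Col4a3 (0.74) and Fxyd6 (0.71). Ucn, Col4a3 and Col4a4 (type IV collagen chains) were found in 0 of 52 pLSOs, and the coefficients cover both classes together. Within the 28 LOCs, Anxa2 and Ucn had an r of 0.56, and Anxa2 and Calca 0.50. Spearman's rho of the same pairs was lower, at 0.42 and 0.33. The genes most like Anxa5 were Chga (chromogranin A, 0.57), Spp1 (0.55), Lpgat1 (0.51), Cela1 (0.50) and Nceh1 (0.49). For S100a10 the highest coefficient was 0.46, with Mettl16, followed by Sssca1 (0.42), Nacad (0.41), Gm22133 and Cdc42bpb (0.40 each), which in sparse values is no finding.

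Other genes of the same families were counted in full. Of 5 other annexins (Anxa8, Anxa9, Anxa10, Anxa11, Anxa13), 4 were at 0 in all 80 neurons and Anxa11 was found in 2 Onset neurons. Of 13 other S100 genes, 5 were never found and 6 passed the filter. Of these, S100b and S100a6 were past 1 towards LOCs, where 4.68% of all genes were, and none towards pLSOs, where 6.99% were. S100b, known from glia and some neurons, was found in 21 of 28 LOCs and 29 of 52 pLSOs, with means of 19.1 and 7.13 TPM, but also in 5 of 8 controls with a mean of 342 TPM. S100a6 (calcyclin), an annexin-binding S100, was found in 4 of 28 LOCs and 3 of 52 pLSOs. Its difference was 1.17 on deposited values but 0.85, short of the call, on length-corrected values. S100a4, an S100 of motile cells, was found in 4 Onset neurons and 2 LOCs. It was past 1 towards Onset against Sustained neurons (1.06), where 4.78% of all genes were, but stood at 0.89 on length-corrected values. S100a3 reached a mean of 18.0 TPM in Onset neurons through 1 cell.

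Of 19 binding partners and clients, 7 were at 0 in all neurons, and 10 passed the filter. Of these 10, 0 were past 1 towards LOCs, where 4.68% of all genes were, and 1 towards pLSOs, where 6.99% were. The 7 at 0 include the S100A10 cargoes Trpv5, Trpv6, Scn10a (the sodium channel Nav1.8) and Htr1b (a serotonin receptor). The others are the irritant channel Trpa1, a client of annexin A2, and Plg and Fpr2. Not all channel genes of the list were absent. Kcnk3 and Asic1 passed the filter, with differences of -0.18 and 0.05, LOC minus pLSO. The gene past 1 was Pdcd6 (ALG-2, a calcium sensor that binds annexins A7 and A11), found in 30 of 52 pLSOs and 11 of 28 LOCs, with a difference of -1.37 and nearly equal means (185 and 189 TPM). Sri (sorcin, a partner of annexin A7) was found in 24 of 52 pLSOs and 13 of 28 LOCs. Hltf, a chromatin remodeller that binds the annexin A2 and S100A10 complex, was found in 7 of 11 Sustained and 11 of 41 Onset neurons. It was past 1 towards Sustained neurons (-3.25, Onset minus Sustained), where 10.3% of all genes were. Ctsb (cathepsin B, a protease docked by the complex) was found in 51 of 52 pLSOs and 27 of 28 LOCs.

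Against the 16 electrical features recorded per cell, Anxa2, Anxa5, Anxa6 and S100a10 had coefficients between -0.47 and 0.43 within the classes. Spearman's rho of Anxa2 in LOCs ran from -0.39 (action potential amplitude) to 0.22 (sIPSC amplitude), over 19 to 28 cells. The same coefficient of Anxa5 in pLSOs ran from -0.25 (input resistance) to 0.34 (capacitance), over 49 to 52 cells. For S100a10 the extremes were -0.47 in LOCs and 0.43 in pLSOs, both with the decay time of sIPSCs and of opposite sign in the classes. These are 16 coefficients for each gene and class, given without a test.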

How the data were processed

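Members, lists, motifs and groups were chosen with earlier results of these data known. Libraries were made from single cells after a modified Smart-seq2 protocol. According to the study's methods and processing notes, the authors trimmed the reads (Trim Galore 0.4.2), aligned them to mm10 with STAR, marked duplicates (Picard 1.115) and summarised them to genes with featureCounts. The score values of the deposited table are TPM that the authors computed from gene length and depth and rounded to whole numbers; each of the 80 compared neurons summed to between 999773 and 1000021. Read totals were estimated from the smallest values of rows 236 to 500, a median of 828549 reads per neuron (188756 to 3162790) and 34950 per control, because the smallest values of successive blocks of rows stood in ratios of 2 and 3, as if sorted lengths had been paired with the rows in order. For rows after 1676 the step rests on this inference, which covers all 10 members (rows 1914 to 19840). Rescaled levels divide the estimated reads by the length of each gene in Gencode vM21 (GRCm38), which had a length for 37570 of 38887 genes; the study names an earlier release. A gene was detected at 1 TPM or more. Shares carry exact Clopper-Pearson 95% intervals, and a share of 0 the limit that 3 cells would give. Neither covers more than counting error. No test was run, since no label names an animal. Named genes are the 10 members, genes of the wider lists past a difference of 1 or averaging at least 10 TPM in either class, and the 5 genes most like Anxa2, Anxa5 and S100a10. Some genes of the wider lists outside these limits are named too, among them the partners at 0 in all neurons. The script was checked on simulated data. These data were built with the same inferred worth of a read, so the check could not test that inference. Scripts used matplotlib 3.10.9 for plots, SciPy 1.17.1 for intervals, and NumPy 2.4.6 with pandas 2.3.3 under Python 3.11.15.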

Additional observations from a re-analysis of the deposited data

Results flagged for a closer look

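In 5 members, a single one of the 8 negative controls stood far above the rest: 436 TPM of Anxa5, 3062 TPM of Anxa6, 262 TPM of Anxa7, 30 TPM of Ahnak and 1 TPM of Anxa2. Where all other controls are at or near 0, any positive value stands apart in this way. The limit used is meant to mark about 1 in 20 groups by chance, a rate that does not carry over to values nearly all at 0. The values of Anxa5 and Anxa6 came from 1 control, with about 190 and 112 estimated reads, whereas the value of Anxa7 was about 1 estimated read in a library of 6011. The Ahnak value came from that same shallow library, with about 6.98 estimated reads.

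Among the 8 libraries left out, 3 held Anxa2 above the highest control, at 32, 125 and 204 TPM. The first is labelled as a Sustained neuron and held 1887 TPM of Calca. The others are labelled as LOCs and held 827 and 692 TPM of Calca.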

How the results depend on the processing

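Over 388 values under other settings, 361 stayed within the spread over cells or the interval of the share, 27 moved further and 0 called differences changed sign. Counts of members and shares of all genes were judged by a fold limit instead. Values of Anxa1, at 0 in every library, could not move. The spread is the SD over cells, so a value that stayed within it could still lose its call. The S100a10 difference between firing types did so at -0.42 with a pseudocount of 10. The Anxa2 difference between classes was 7.87 with a pseudocount of 0.1 and 3.01 with 10, and lay between these in the other 5 settings; that of Anxa5 ran from -5.28 to -1.53. That of Anxa7 ran from -1.53 to 0, the latter with medians over neurons, where the call was lost. The Onset minus Sustained difference of S100a10, tried after seeing the data, was -3.12 on rescaled values and -3.0 with medians. The share of all genes past 1 was 1.24% towards LOCs and 1.85% towards pLSOs without a filter, and 7.69% and 13.3% among genes found in at least 20% of neurons. The counts of members past 1 stayed at 1 and 2 with rescaled values and with every labelled library. Detection of Anxa7 in LOCs went to 0 of 28 at 5 TPM, and at 10 TPM the share of S100a10 fell to 7.14% of LOCs and 9.62% of pLSOs. Leaving out 1 replicate was not run, since every group holds 8 or more libraries. No paired analysis was possible because the labels give each cell no number shared between groups, and no result comes from a test. Rounding to whole TPM limits detection of S100a10 and Ahnak most, since several reads are needed for 1 TPM. The number of animals limits every comparison and is unknown.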
